A study of Mus musculus with 16 samples.

Results

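The growth hormone receptor Ghr, the hormone Igf1, the proteins that carry IGF1 in blood and tissue fluid, and the feedback inhibitor Socs2 were followed in 4 tissues of mice given the kinase inhibitor sunitinib (Sutent). The 10 genes were Ghr, Socs2, Igf1, Igfals, Igfbp1, Igfbp2, Igfbp3, Igfbp4, Igfbp5 and Igfbp7, taken by gene symbol from tables that together list 24934 genes. Total RNA of brown fat (BAT), epididymal white fat (eWAT), inguinal white fat (iWAT) and liver was sequenced from C57BL/6 mice at 24 weeks of age. In each tissue a vehicle group and a sunitinib group had 2 libraries each, 16 libraries in all. The labels give no genetic change, dose or length of treatment. The series gives 8 mice, 4 per treatment, without saying which animal or pool went into which library. The p-values therefore measure the spread between libraries, which may be partly technical.

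Growth hormone acts on its receptor in liver and fat cells, and the receptor signals through JAK2 and STAT5 to raise Igf1, Igfals and Socs2. Socs2 in turn dampens the receptor. Most IGF1 in blood travels in a complex of IGF1, IGFBP3 or IGFBP5, and the acid-labile subunit, which Igfals encodes and which prolongs the life of the hormone in the circulation. Igfbp1 and Igfbp2 bind IGF1 in smaller complexes and are lowered by insulin in liver, Igfbp4 mostly holds IGF1 back in tissues, and Igfbp7 is a secreted protein of vessel walls that binds IGF1 only weakly.

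Igfals was lower with sunitinib in both white fat depots, and its groups overlapped in brown fat and liver. The difference passed the test in eWAT, at −0.61 ± 0.08 (log2 sunitinib minus vehicle ± SE, 2 libraries per group), and had an estimate of −1.01 ± 0.10 in iWAT, where no gene of the whole table passed. Igfbp5 was lower in both sunitinib libraries than in both vehicle libraries in all 4 tissues, by 0.22 to 0.81, without passing in any. Such a separation held for 19.2% to 26.8% of all genes within a tissue. It held for 0.873% of the genes tested in all 4 tissues in each of them. The differences of Ghr and Igf1 lay between −0.25 and 0.05 and did not pass.

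The values are regularized log2 levels, which pull genes with few reads towards their mean. Each tissue was normalized on its own, so differences were tested within a tissue. In these scales 1 unit is a doubling, and read depth cannot be recovered. Genes with a mean of at least 3 in a tissue were tested with limma, and an adjusted p below 0.05 over all genes of that tissue counts as passing. The tissue labels fitted their markers. Ucp1, the uncoupling protein of brown fat, was at 16.46 to 16.93 in brown fat and at most 7.58 elsewhere, Alb at 20.13 to 20.33 in liver and at most 10.81 in fat, and Adipoq at 13.46 to 16.21 in fat and at most 5.76 in liver.

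Some libraries stood apart. The sunitinib pair of iWAT differed most: over the genes tested, the SD of the difference between its 2 libraries was 0.590, against 0.119 to 0.300 for the other pairs. The mean level of 10 skeletal muscle genes was 14.0 and 12.7 in the vehicle libraries of iWAT and 12.1 and 8.59 in its sunitinib libraries. In brown fat the same list was at 7.90 and 11.7 with vehicle and 9.85 and 9.12 with sunitinib. In eWAT the mean level of 9 epithelial and epididymal duct genes was 6.21 and 6.74 with vehicle and 8.25 and 7.52 with sunitinib. All 9 were higher, with a median of 1.55, and 1 of them, Cldn7, rose, where 2.34% of all eWAT genes passed. Crisp1 of this list was at 12.66 in sunitinib library 1 and at 5.98 to 6.21 in the other libraries.

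The 10 genes had distinct homes in the vehicle libraries. Levels across tissues are given as deposited, without a test, since the tables were scaled separately. They are set beside the order obtained after subtracting from each library the median of the 11113 genes tested in all 4 tissues. Ghr, the receptor, was highest in white fat, at 14.25 and 14.41 in eWAT and 14.21 and 14.32 in iWAT, followed by liver at 12.64 and 12.83 and brown fat at 11.03 and 11.10. The 2 white depots overlapped, and the other steps were wider than the spread. Igf1 was highest in liver, at 12.75 and 12.78, then in eWAT at 11.85 and 11.92 and iWAT at 11.59 and 11.62, and far lower in brown fat at 6.43 and 6.66. No neighbours overlapped in that order. Socs2 was highest in liver at 7.94 and 8.45. Its levels in iWAT, eWAT and brown fat lay between 6.10 and 6.74, and their order among the fats changed with the subtraction.

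Igfals, best known as a liver product, was slightly higher in white fat than in liver on the deposited scale. It stood at 11.26 and 11.45 in eWAT, 11.00 and 11.08 in iWAT, 10.80 and 10.91 in liver and 5.17 and 5.20 in brown fat. After the subtraction liver came first, at 3.27 above the common median against 2.58 in eWAT and 2.32 in iWAT, and brown fat stayed last at −2.58. Markers of hepatocytes were far lower in fat than in liver. Alb, which was 20.32 and 20.33 in the vehicle livers, was 9.93 to 10.50 in the vehicle libraries of both white depots and 9.43 and 9.81 in brown fat, and Apoa1 was 17.47 and 17.73 in liver and at most 6.69 in fat.

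The carriers and other binding proteins divided between liver and fat. Igfbp1 was at 9.31 and 10.22 in liver and 4.37 and 4.52 in eWAT, and it was not analysed here in the other fats. Igfbp2 was at 12.42 and 12.70 in liver, 6.52 and 7.00 in eWAT, and below the minimum for testing in iWAT (2.59 and 2.66) and brown fat (1.66 and 1.69). Igfbp4 was highest in liver at 14.68 and 14.74, at 13.23 to 13.67 in white fat, and at 8.46 and 8.93 in brown fat. Igfbp5 was highest in white fat and lowest in liver, from 13.24 and 13.36 in iWAT and 12.94 and 13.08 in eWAT to 9.93 and 10.08 in brown fat and 6.45 and 6.66 in liver. Igfbp3 was also highest in iWAT, at 9.54 and 9.68, and lowest in liver, at 6.93 and 7.09, and its eWAT and brown fat levels between them changed places with the subtraction. Igfbp7 was at 11.16 to 11.59 in the white depots, which overlapped, and at 9.16 to 9.40 in liver and brown fat, which overlapped as well.

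**Figure D1:**
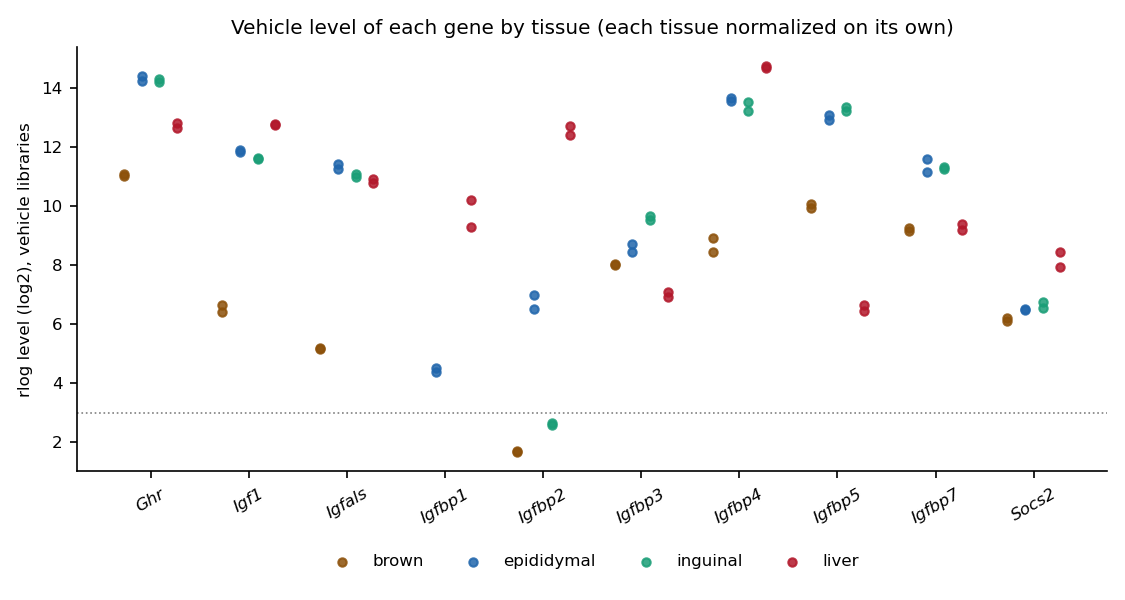
Regularized log2 level (vertical axis) of each of the 10 genes in the vehicle libraries, 2 points per tissue, with the tissue given by colour; the dotted line marks the minimum of 3 for testing. Igfals is near 11 in both white depots and in liver and near 5.2 in brown fat, and Igfbp2 is below the line in brown fat and iWAT.

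With sunitinib, 1 of the 10 genes passed in 1 tissue. In eWAT 10 were tested and 1 passed, where 2.34% of all genes tested passed (2.06% as lower), and 5 had sunitinib libraries that did not overlap the vehicle libraries, against 53.7% of all genes. In brown fat 0 of 8 passed (0% of all genes) and 4 did not overlap (50.2%). In iWAT 0 of 8 passed (0%) and 4 did not overlap (50.4%), and in liver 0 of 10 passed (0.194%) and 5 did not overlap (37.4%). Of the members without overlap, 2 were lower and 2 higher in brown fat (24% and 26.2% of all genes), 3 lower and 2 higher in eWAT (26.8% and 27%), 2 and 2 in iWAT (26.4% and 24%), and 4 lower and 1 higher in liver (19.2% and 18.3%). The shares of the members without overlap, from 4 of 8 to 5 of 10, are near those of all genes in the fats.

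An unadjusted p below 0.05 was reached by 2 of 8 genes in brown fat (16.1% of all genes), 2 of 10 in eWAT (20.1%), 3 of 8 in iWAT (12.7%) and 3 of 10 in liver (8.64%). The median difference of the tested members was 0.02 in brown fat, 0.03 in eWAT, −0.10 in iWAT and −0.06 in liver, and that of all genes lay between −0.00 and 0.01 in each tissue. The 95% intervals were widest in iWAT, with a median width of 0.921, against 0.379 in brown fat, 0.485 in eWAT and 0.394 in liver. Without sunitinib library 1 of iWAT, 6 of the 8 genes passed there, and so did 4103 of the 14916 genes of the table, or 27.5%. Without library 2, Igfals and Igfbp5 passed, as did 733 genes, or 4.91%. In liver 3 members passed without sunitinib library 4 (3.66% of all genes) or vehicle library 1 (1.35%), and 1 without sunitinib library 3 (0.888%) or vehicle library 2 (0.403%).

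**Figure D2:**
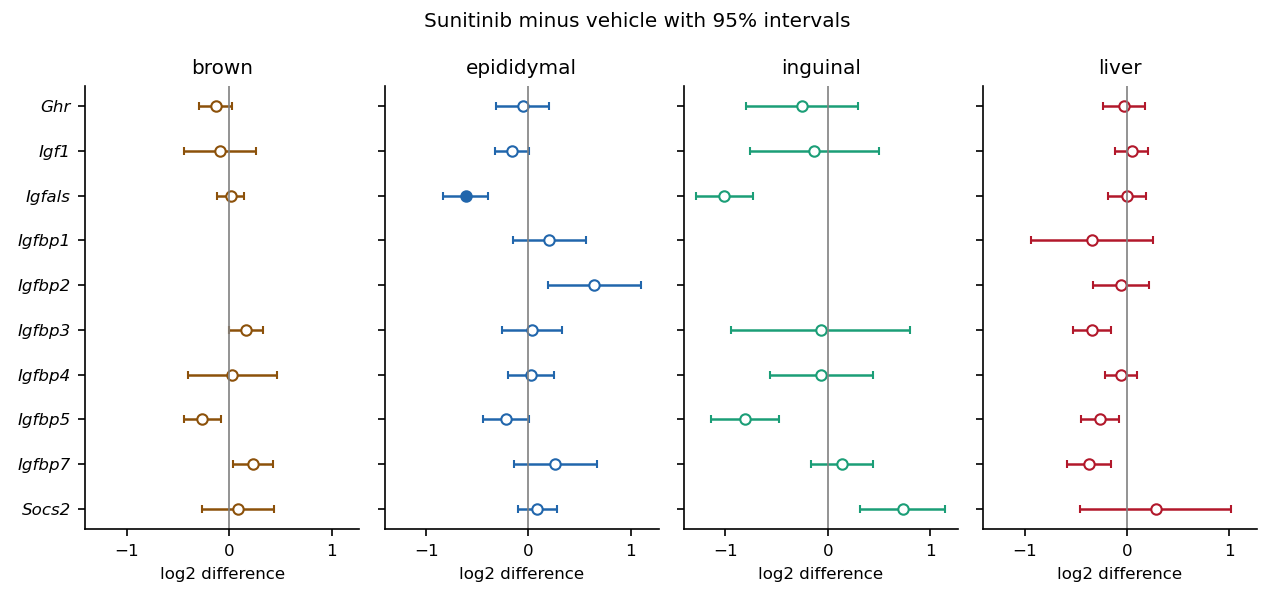
Log2 difference, sunitinib minus vehicle (horizontal axis), of each tested gene in each tissue, with its 95% interval from limma; a filled point passed at an adjusted p below 0.05. The one filled point is Igfals in eWAT at −0.61, and the inguinal intervals are the widest.

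Neither the receptor nor the hormone passed in any tissue. Ghr was 14.41 and 14.25 in the vehicle libraries of eWAT and 14.24 and 14.31 in the sunitinib libraries, a difference of −0.06 with a 95% interval of −0.32 to 0.20. In liver it was 12.64 and 12.83 against 12.61 and 12.79, a difference of −0.03 (−0.24 to 0.18). These groups overlapped, and with quantile normalization the estimate became 0.11 in eWAT and 0.04 in liver. In brown fat Ghr was 11.03 and 11.10 with vehicle and 10.91 and 10.96 with sunitinib, without overlap, a difference of −0.13 (−0.30 to 0.03, adjusted p = 0.372). In iWAT it was 14.21 and 14.32 against 14.21 and 13.81. The difference of −0.25 (−0.80 to 0.30) was carried by sunitinib library 2, and without sunitinib library 1 it was −0.45.

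Igf1 in liver, the main source of the hormone in blood, was 12.78 and 12.75 with vehicle and 12.79 and 12.83 with sunitinib, a difference of 0.05 with an interval of −0.11 to 0.20. In eWAT it was 11.85 and 11.92 against 11.72 and 11.72, lower without overlap by an estimate of −0.16 (−0.33 to 0.00, adjusted p = 0.254). In iWAT the 2 sunitinib libraries lay on either side of the vehicle libraries, at 11.79 and 11.17 against 11.62 and 11.59. The estimate of −0.13 turned to 0.18 without sunitinib library 2 and to −0.44 without sunitinib library 1. In brown fat the groups overlapped, at 6.43 and 6.66 against 6.62 and 6.28. The annotated antisense gene Igf1os overlaps Igf1, and since the use of strand in the counting is not given in the sources used here, reads of the pair cannot be told apart.

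Socs2, the feedback inhibitor that growth hormone induces, was 6.74 and 6.55 in the vehicle libraries of iWAT and 7.32 and 7.43 in the sunitinib libraries. Both sunitinib libraries were higher, by 0.73 ± 0.15, with an adjusted p of 0.313. As each library was left out, the difference ranged from 0.63 to 0.83. In eWAT it was 6.47 and 6.53 against 6.53 and 6.64, a difference of 0.09 ± 0.07. In liver the sunitinib libraries were far apart, at 9.11 and 7.84 around vehicle values of 8.45 and 7.94, so the estimate of 0.28 ± 0.33 rested on library 3. Without library 3 it was −0.36 and without library 4 it was 0.92. In brown fat it was 6.20 and 6.10 against 6.44 and 6.04, again overlapping.

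Igfals, the acid-labile subunit, gave the clearest difference of the family. In eWAT it was 11.26 and 11.45 with vehicle and 10.76 and 10.71 with sunitinib, a fall by 0.61 ± 0.08 on the log2 scale (95% interval −0.83 to −0.40, limma adjusted p = 0.0440), to 0.653 times the vehicle level. In iWAT it was 11.00 and 11.08 against 9.96 and 10.10, a difference of −1.01 ± 0.10 (−1.28 to −0.73), or 0.497 times, with an unadjusted p of 0.000439 and an adjusted p of 0.285. In each white depot both sunitinib libraries were below both vehicle libraries. The labels do not say whether the depots share mice. Being lower without overlap in both white depots held for 12.6% of the 14352 genes tested in both.

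The eWAT call was close to the threshold and was lost without either vehicle library. Without vehicle library 1 the difference was −0.71 with an adjusted p of 0.218, and without vehicle library 2 it was −0.52 with 0.281. In both settings 0 of the 15526 genes of the table passed. Without sunitinib library 1, the library with high Crisp1, the difference was −0.64. The iWAT difference passed in a fit over all 4 tissues (adjusted p = 0.000172), where 21.8% of 11113 genes passed for iWAT. It was −0.94 without iWAT sunitinib library 1 and −1.08 without library 2.

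In brown fat Igfals was 5.20 and 5.17 against 5.19 and 5.21, and in liver 10.91 and 10.80 against 10.93 and 10.79. The groups overlapped in both, with differences of 0.01 (−0.12 to 0.15) and 0.00 (−0.18 to 0.19). The liver interval thus does not reach the size of the eWAT estimate.

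Other cells of white fat moved in the same libraries. In whole tissue, fewer cells of a type and less RNA per cell cannot be told apart. The mean level of 12 adipocyte genes in eWAT was 15.18 and 15.01 with vehicle and 15.13 and 15.00 with sunitinib, with 6 of 12 lower and 1 of them passing. In iWAT it was 15.10 and 15.25 against 15.20 and 14.76, with 9 of 12 lower and 0 passing. The macrophage list of eWAT, by contrast, went from 11.15 and 11.15 to 10.20 and 10.23, and 9 of its 13 genes fell (2.06% of all genes). In iWAT it was 10.28 and 9.94 against 9.54 and 9.70, with 0 of 13 passing and all 13 lower. The endothelial list had a median of −0.40 in eWAT and −0.34 in iWAT, with 17 of 18 genes lower in each. In iWAT all 10 skeletal muscle genes were lower too, with a median of −3.04 and 0 passing. The part of these cells in the Igfals result was not tested. Neighbouring Nubp2, which lies beside Igfals on the other strand, was lower in eWAT by an estimate of −0.25 ± 0.08 (adjusted p = 0.187), and was −0.13 ± 0.15 in iWAT.

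**Figure D3:**
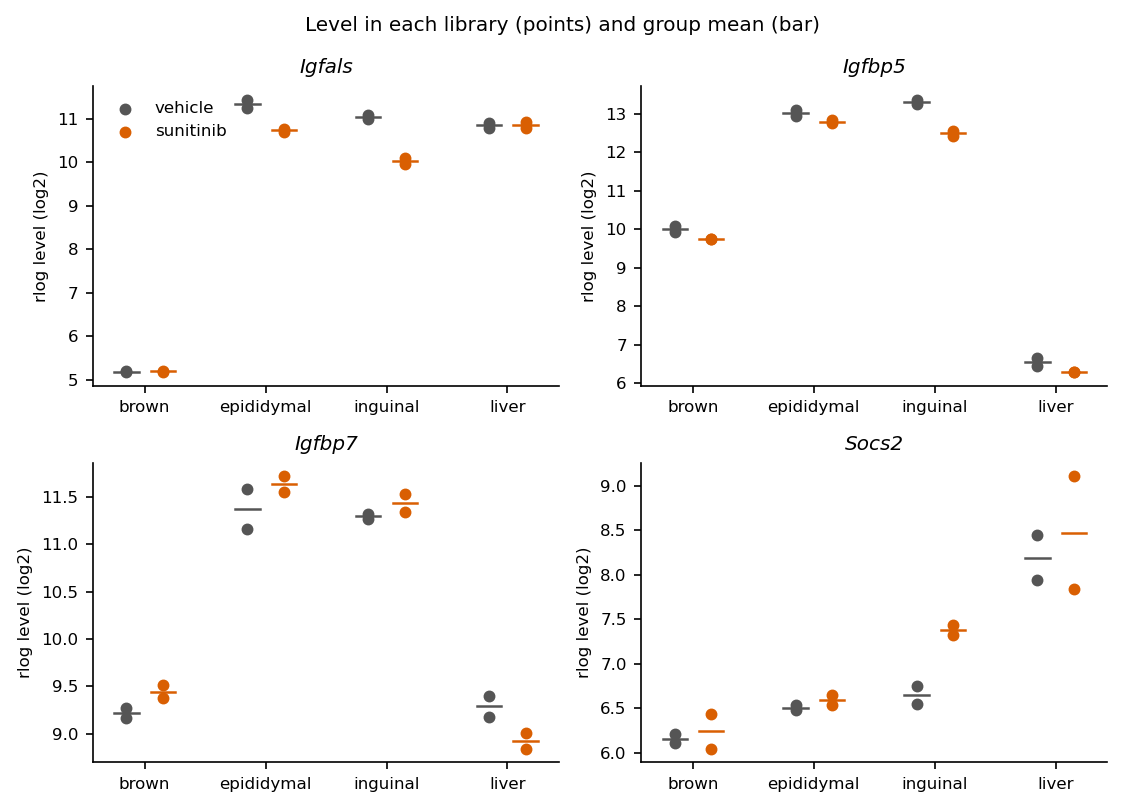
Regularized log2 level (vertical axis, its range set for each gene) of Igfals, Igfbp5, Igfbp7 and Socs2 in every library, with vehicle in grey and sunitinib in orange and a bar at each group mean of 2 libraries. Igfals separates in both white depots and overlaps in brown fat and liver, while Igfbp5 is lower with sunitinib in all 4 tissues.

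The windows upstream of Igfals that hold a match are shown because it was the gene that passed and because STAT5, the growth hormone effector, binds the palindrome TTCNNNGAA. RefSeq promoters (GRCm38.p6) matched 9 of the 10 genes, with 13 windows of 250 bases before an annotated start, and Socs2 had no entry. The palindrome, which reads the same on both strands, was found in 2 of the 13 windows, both of Igfals, and in 7.02% of 32851 windows of all genes. Of the 3 windows of Igfals, the one without a match is not printed. The others are given 5′ to 3′ on the plus strand, with the palindrome in capitals.

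Igfals, chr17:24877594-24877843, palindrome at bases 236 to 228 before the start: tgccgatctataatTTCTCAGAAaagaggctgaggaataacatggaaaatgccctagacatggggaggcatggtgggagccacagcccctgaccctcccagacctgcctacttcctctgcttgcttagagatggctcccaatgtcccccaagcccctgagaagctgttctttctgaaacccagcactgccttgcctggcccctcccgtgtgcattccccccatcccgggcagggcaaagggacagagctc
Igfals, chr17:24877981-24878230, palindrome at bases 58 to 50 before the start: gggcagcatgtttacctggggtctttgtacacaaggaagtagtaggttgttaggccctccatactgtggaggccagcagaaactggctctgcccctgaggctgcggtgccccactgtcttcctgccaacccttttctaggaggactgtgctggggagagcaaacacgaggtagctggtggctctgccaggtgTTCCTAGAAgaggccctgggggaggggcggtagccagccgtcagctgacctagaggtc

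A match of letters does not show binding. The core of the insulin response element, CAAAACAA, searched on both strands, was found in the window of Igfbp1 only, and in 2.21% of all windows.

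Igfbp5, which carries IGF1 together with the acid-labile subunit and is abundant in connective tissue cells, was lower without overlap in every tissue. In iWAT it was 13.24 and 13.36 with vehicle and 12.43 and 12.56 with sunitinib, a difference of −0.81 ± 0.12 (−1.15 to −0.48, adjusted p = 0.308). It passed there in the fit over 4 tissues (adjusted p = 0.000470, where 21.8% of genes passed). As each library was left out, the iWAT difference ranged from −0.87 to −0.75. In brown fat it was 9.93 and 10.08 against 9.73 and 9.74, a difference of −0.26 ± 0.07 (adjusted p = 0.235). This difference ranged from −0.34 to −0.19 as each library was left out. The eWAT libraries were 13.08 and 12.94 against 12.84 and 12.75, a difference of −0.22 ± 0.09 (adjusted p = 0.260). The liver libraries were 6.45 and 6.66 against 6.28 and 6.30, a difference of −0.26 ± 0.08 (adjusted p = 0.378). The liver difference ranged from −0.37 to −0.15 as each library was left out. Of the 11113 genes tested in all 4 tissues, 97, or 0.873%, were lower without overlap in each.

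Fibroblast and preadipocyte markers moved with Igfbp5 in iWAT, where their mean level was 11.82 and 11.65 with vehicle and 11.37 and 11.11 with sunitinib. There 11 of 12 were lower, with a median of −0.56, against −0.07 in eWAT and −0.14 in brown fat. In liver all 9 markers of stellate cells and portal fibroblasts were lower, with a median of −0.17. None of these genes passed in these tissues. By limma an unadjusted p below 0.05 was reached by 5 in iWAT (12.7% of all genes) and 7 in eWAT (20.1%). It was reached by 1 in brown fat (16.1%) and 0 in liver (8.64%). The part of these markers in the Igfbp5 values was not tested. The 10 skeletal muscle genes were also lower in iWAT, with a median of −3.04, and their part was not tested either.

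Igfbp3, the main carrier in blood, had its clearest difference in liver, at 6.93 and 7.09 with vehicle and 6.61 and 6.72 with sunitinib. Both sunitinib libraries were lower, by an estimate of −0.34 ± 0.08 (adjusted p = 0.193). As each library was left out, the liver estimate ranged from −0.42 to −0.27. In brown fat it was higher without overlap, at 8.00 and 8.04 against 8.22 and 8.14, a difference of 0.16 ± 0.06 (adjusted p = 0.314). The groups overlapped in eWAT, at 8.46 and 8.73 against 8.70 and 8.55. In iWAT its sunitinib libraries spanned 9.10 to 9.98 around vehicle values of 9.68 and 9.54. The estimate there was −0.07, and it ranged from −0.51 to 0.37 as each library was left out.

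Igfbp7, the vessel wall member, had a negative estimate in liver and a positive one in every fat. In liver it was 9.18 and 9.40 against 8.84 and 9.01, a difference of −0.37 ± 0.10 (adjusted p = 0.243). This difference ranged from −0.48 to −0.26 as each library was left out. In brown fat it was 9.16 and 9.27 against 9.51 and 9.38, higher by 0.23 ± 0.08 (adjusted p = 0.268), and in iWAT 11.32 and 11.27 against 11.53 and 11.34, an estimate of 0.14 ± 0.11. In eWAT the groups overlapped, at 11.16 and 11.59 against 11.55 and 11.72. Polr2b and Gm34648 overlap Igfbp7 on the other strand, and Polr2b was listed at 1.86 to 2.99 in all 16 libraries. As for Igf1, the use of strand in the counting is not given, so reads of these overlapping genes cannot be told apart.

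Endothelial markers had the sign of Igfbp3 and Igfbp7 in brown fat and liver, and mostly the opposite sign to Igfbp7 in white fat. In brown fat all 18 endothelial genes had a positive estimate, with a median of 0.36 and mean levels of 9.62 and 9.32 against 9.87 and 9.77. There 0 of 18 passed by limma, and 10 had an unadjusted p below 0.05, against 16.1% of all genes. In liver 16 of 18 were lower, with a median of −0.13 and mean levels of 7.11 and 7.26 against 7.01 and 7.03. Again 0 of 18 passed by limma, and 7 had an unadjusted p below 0.05, against 8.64% of all genes. In eWAT, where Igfbp7 had an estimate of 0.26, the endothelial median was −0.40, and 1 gene of the list fell (2.06% of all genes). In iWAT, where Igfbp7 had an estimate of 0.14, the endothelial median was −0.34, with 17 of 18 lower. The part of endothelial cells in the Igfbp3 and Igfbp7 values was not tested.

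The insulin-lowered binding proteins did not pass with all libraries in the fit. Igfbp1 was variable between livers, at 10.22 and 9.31 with vehicle and 9.73 and 9.11 with sunitinib, which gave −0.34 ± 0.26 with overlapping groups. The estimate was −0.80 without vehicle library 2, −0.65 without sunitinib library 3, and 0.11 without vehicle library 1. In eWAT it was low, at 4.37 and 4.52 against 4.45 and 4.85, and passed only without sunitinib library 1 (0.40, adjusted p = 0.0415; 6.32% of all genes passed). Igfbp2 in eWAT was higher in both sunitinib libraries, at 6.52 and 7.00 against 7.49 and 7.32, by 0.64 ± 0.18 (0.19 to 1.10, adjusted p = 0.144). The epithelial and epididymal duct genes were higher in the same libraries, 9 of 9 with a median of 1.55, and their part in the Igfbp2 value was not tested. In liver, its main site, Igfbp2 was 12.70 and 12.42 against 12.66 and 12.34, a difference of −0.06 with an interval of −0.33 to 0.22.

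Igfbp4 had overlapping groups in all 3 fats, with differences of 0.03 in brown fat, 0.03 in eWAT and −0.06 in iWAT. In liver it was 14.74 and 14.68 against 14.68 and 14.63, a difference of −0.06 (−0.22 to 0.10). The iWAT estimate became 0.11 with quantile normalization.

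The effect of sunitinib on Igfals differed between eWAT and tissues outside white fat. The brown fat effect minus the eWAT effect was 0.63 ± 0.10 (adjusted p = 0.0236), and the eWAT effect minus the liver effect was −0.62 ± 0.12 (adjusted p = 0.0278). These comparisons share the eWAT libraries. The tissues may also share mice, which the labels do not settle and the fit does not use. They were the 2 that passed among 50 tests of the members over 6 pairs of tissues, where 3.64% of all genes passed for brown fat minus eWAT and 3.95% for eWAT minus liver. The brown fat difference lost its call without either brown fat sunitinib library (adjusted p = 0.0968 without library 1, 0.0893 without library 2), without brown fat vehicle library 2 (0.0514), without eWAT sunitinib library 2 (0.05002) and without eWAT vehicle library 2 (0.0678). The liver difference lost it without liver sunitinib library 3 (0.116), liver vehicle library 1 (0.0695), liver vehicle library 2 (0.105) and eWAT vehicle library 2 (0.0812). The values of the brown fat difference ranged from 0.53 to 0.72 and those of the liver difference from −0.71 to −0.52 as each library was left out. Igfals was low in brown fat, where 21.9% of the genes tested had a lower vehicle mean. Regularized levels pull the differences of genes with few reads towards 0. How far this set the brown fat effect was not tested.

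For iWAT, Igfals differed from brown fat by 1.02 ± 0.12 (brown fat minus iWAT, adjusted p = 0.102; 0.0314% of all genes passed) and from liver by −1.01 ± 0.13 (iWAT minus liver, adjusted p = 0.0633; 0.043% passed). Both passed without iWAT sunitinib library 1 (0.00310 and 0.00124, with 19% and 26.2% of all genes) or library 2 (0.0149 and 0.00344, with 3.22% and 7.36%). The eWAT effect minus the iWAT effect was 0.40 ± 0.13 with an adjusted p of 0.466, so a difference between the white depots was not shown.

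The other members gave no call between tissues. The Igfbp5 effect in iWAT stood apart by estimates of 0.55 ± 0.13 from brown fat (adjusted p = 0.184), 0.59 ± 0.14 from eWAT (0.442) and −0.55 ± 0.14 from liver (0.208). The opposite signs of Igfbp3 and Igfbp7 in brown fat and liver gave brown fat minus liver differences of 0.51 ± 0.11 (adjusted p = 0.149) and 0.60 ± 0.13 (0.152), where 0% of all genes passed. For Socs2 the eWAT effect minus the iWAT effect was −0.65 ± 0.16 (adjusted p = 0.442; 0% passed). Without iWAT sunitinib library 1 the Igfbp5 differences passed (0.0417, 0.0390 and 0.0354 in the same order), as did that of Socs2 (0.0217). In that setting 19% of all genes passed for brown fat minus iWAT, 21.3% for eWAT minus iWAT and 26.2% for iWAT minus liver. Without library 2 the Igfbp5 difference from liver passed (0.0379), as did 7.36% of all genes.

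Genes with the pattern most like a member were found by Pearson's r over the 16 libraries, after subtracting the mean of each gene in each tissue, among 9905 genes. For Igfals they were Alcam (r = 0.978), a cell adhesion protein, Mest (r = 0.9754), an imprinted gene linked to fat cell enlargement, and Rab11fip5 (r = 0.972), a vesicle traffic protein. In eWAT Mest fell by 0.74 ± 0.08 (adjusted p = 0.0276) and Alcam fell by 0.38 ± 0.06 (0.0492), while Rab11fip5 had an estimate of −0.44 ± 0.08 (0.0707). In iWAT the estimates were −1.07 ± 0.13 for Mest, −0.62 ± 0.09 for Alcam and −0.61 ± 0.09 for Rab11fip5, without a call. The 16 points share the 2 white depots, which set most of the spread of Igfals. These genes were picked by that pattern, so their lower levels in white fat are not independent evidence.

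**Figure D4:**
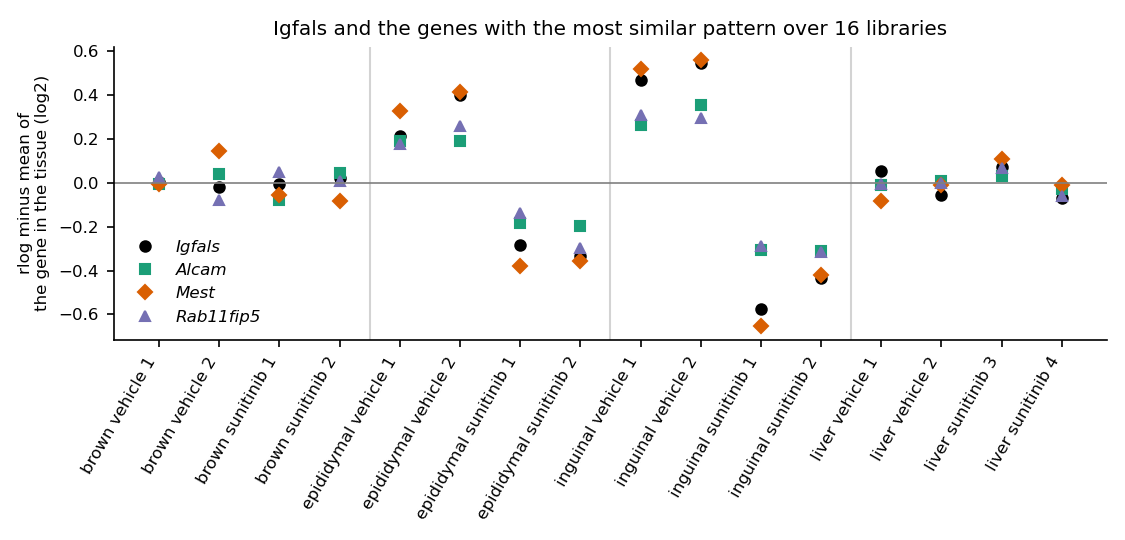
Level of Igfals, Alcam, Mest and Rab11fip5 in each of the 16 libraries minus the mean of that gene in the tissue (vertical axis, log2), with libraries in order of tissue and treatment. All 4 genes are above 0 in the white fat vehicle libraries, below 0 in the white fat sunitinib libraries and within 0.15 of 0 in brown fat and liver.

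For Igfbp5 the nearest patterns were those of Olfm1 (r = 0.961), Nkd1 (0.954) and Gadd45a (0.953), and the first of these had estimates of −0.77 in iWAT and −0.42 in eWAT. Igfbp3 was followed by Clec14a (r = 0.906), a membrane protein of endothelial cells, Bmf (0.901) and Ppif (0.886). The nearest to Igfbp7 was Tspan7 (r = 0.805). Ghr was followed by Laptm4a (r = 0.956), Igf1 by Heph (0.906), Igfbp4 by Polr2k (0.909) and Socs2 by Irf2bp2 (0.897).

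Of 28 other genes of growth hormone and IGF signalling, such as Igf1r, Jak2, Stat5b and Irs1, none passed by limma in any tissue. The numbers tested were 25 in brown fat, 28 in eWAT, 26 in iWAT and 22 in liver, with medians of −0.05, 0.06, 0.02 and 0.01. An unadjusted p below 0.05 was reached by 2, 7, 1 and 3 of them in the same order. The shares of all genes were 16.1%, 20.1%, 12.7% and 8.64%. In eWAT the smallest p belonged to Igf2r, the receptor that clears IGF2, which was 11.12 and 11.07 with vehicle and 10.77 and 10.65 with sunitinib, a difference of −0.38 ± 0.07 (adjusted p = 0.0694). Without sunitinib library 1 the difference was −0.44. Adam17, a protease that sheds the growth hormone receptor, was next but one, at −0.35 ± 0.08 (adjusted p = 0.108). Igf2bp2, an RNA-binding protein that promotes Igf2 translation, was −0.30 ± 0.06 (0.0913).

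Bcl6, a repressor that competes with STAT5 for its sites and is lowered by growth hormone in liver, was among the 4 smallest p in 3 tissues. It was 9.36 and 9.65 against 8.78 and 9.13 in eWAT (−0.55 ± 0.15, adjusted p = 0.15). In brown fat it was 9.65 and 9.57 against 9.44 and 9.37 (−0.20 ± 0.07, adjusted p = 0.259). In liver its sunitinib libraries spanned 8.39 to 9.07 and overlapped vehicle values of 9.28 and 8.96. The liver estimate of −0.39 was −0.73 without sunitinib library 4 and −0.05 without library 3. The same libraries separated for Socs2 in the other direction.

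Socs3 and Cish, feedback inhibitors related to Socs2, were among the 4 smallest p in liver and did not pass. Socs3 was 7.15 and 7.19 with vehicle and 7.42 and 7.46 with sunitinib, a difference of 0.27 ± 0.07 (adjusted p = 0.240), and Cish was 7.37 and 7.43 against 7.65 and 7.57, a difference of 0.21 ± 0.07 (0.454). Neither overlapped, as held for 18.3% of all genes in that direction. In iWAT Socs1 had an estimate of 0.63 ± 0.31 (adjusted p = 0.453). Htra1, a protease that cleaves IGF binding proteins, was 12.20 and 12.25 against 11.74 and 11.65 in iWAT, a difference of −0.53 ± 0.10 (adjusted p = 0.313). In brown fat Igf2, the fetal relative of Igf1, was 6.81 and 6.82 against 6.99 and 7.12, a difference of 0.24 ± 0.07 (adjusted p = 0.252), Stat5a had an estimate of −0.19 and Irs1 one of −0.16.

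Liver genes that depend on the sex pattern of growth hormone secretion were tested beside Ghr and Igf1. Of 19 male-high genes tested, 1 rose, Cyp7b1 of bile acid and oxysterol metabolism, by 0.65 (adjusted p = 0.0178), and all 19 had a positive estimate, with a median of 0.26. Of 11 female-high genes, 2 fell and the median was −0.17. Among these 11, 8 had a negative estimate and 3 a positive one, of up to 0.47. Of all genes tested in liver, 0.194% passed. Acot3, a peroxisomal thioesterase, fell by 1.34 (adjusted p = 0.000797) and Cyp2a4, a steroid hydroxylase, fell by 0.70 (0.0178). The lists were written with earlier results of these livers known, so their direction is not independent evidence.

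Insulin- and FOXO-regulated genes, tested beside Igfbp1 and Igfbp2, gave 0 calls by limma in each tissue. An unadjusted p below 0.05 was reached by 2 of 11 in brown fat (16.1% of all genes) and 3 of 12 in eWAT (20.1%). In iWAT it was reached by 3 of 11 (12.7%) and in liver by 2 of 12 (8.64%). In eWAT, Pck1 of glyceroneogenesis was 14.55 and 13.79 with vehicle and 15.05 and 15.12 with sunitinib, higher without overlap by 0.91 (adjusted p = 0.154), and in iWAT it was 14.61 and 14.87 against 16.01 and 15.34, higher by 0.94 (0.377). In liver, where Igfbp1 and Igfbp2 had overlapping groups, 8 of 12 genes of the list were lower, with a median of −0.08.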

How the data were processed

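The authors deposited regularized log2 expression per gene and library, as 1 table for each tissue, per the file headers and names. The genome build was mm9 and the tools named, per the submitters' processing notes, are TopHat2 2.1.1, DESeq2, bedtools and bcl2fastq 2.17.1.14. What DESeq2 did, which annotation was counted and whether strand was used is not given in the sources used here. Shrinkage lowers both differences and spread of genes with few reads, and depth is unknown. The sunitinib livers carry numbers 3 and 4 in the titles and 1 and 2 in the column names. The title numbers are used here.

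In R 4.3.3, limma 3.58.1 with a trend of variance on level was run for each tissue on genes with a mean of at least 3 (13044 in brown fat, 15526 in eWAT, 14916 in iWAT and 12394 in liver), with 2 residual degrees of freedom, and Benjamini-Hochberg adjustment. Tissue differences were interaction contrasts over both tissues, among genes tested in both. Tests are two-sided. An exact permutation test of 2 against 2 libraries cannot go below 0.333, so none is given. Fits were tested on simulated data. All 10 members are reported, and of the 28 pathway genes the 4 with the smallest p per tissue were eligible to be named; of the other lists, up to 4. For each member tested everywhere, the 3 genes with the highest r were taken. The members and lists were chosen with earlier results of these data known. Alternatives were filters, scalings, variance models, 1 joint fit, a replicate block and leaving out each library.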

Additional observations from a re-analysis of the deposited data

Results flagged for a closer look

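The effect of sunitinib on Igfals differed between tissues by a test of the difference itself in 2 pairs. The brown fat effect minus the eWAT effect was 0.63 (limma adjusted p = 0.0236): both eWAT sunitinib libraries were below both vehicle libraries, while the brown fat groups overlapped. The eWAT effect minus the liver effect was −0.62 (limma adjusted p = 0.0278), and the liver groups overlapped too. Both pairs use the same eWAT libraries, so they are not independent of each other. The series states 8 mice for 16 libraries, so libraries of different tissues may come from the same mice. The contrasts treat them as independent, and the labels do not allow a fit by mouse. In brown fat Igfals was low, with 21.9% of the genes tested below its vehicle mean. Regularized levels pull differences of genes with few reads towards 0, and the part of this in the brown fat contrast was not tested.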

How the results depend on the processing

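The number of members that passed moved from 1 to 0 in eWAT without a filter on low values and with quantile normalization, where Igfals had an adjusted p of 0.0706 and 0.0599. In iWAT it moved from 0 to 2, Igfals and Igfbp5, in 1 fit over the 4 tissues, where 21.8% of all genes passed. The subtraction of the common median changed the order of vehicle levels for 4 genes, Igfals, Igfbp2, Igfbp3 and Socs2. As each library was left out, the count ranged from 0 to 1 in brown fat, 0 to 2 in eWAT, 0 to 6 in iWAT and 1 to 3 in liver. For tissue differences it ranged from 0 to 1 for brown fat minus eWAT, 0 to 2 for brown fat minus iWAT, 0 to 2 for eWAT minus iWAT, 0 to 1 for eWAT minus liver and 0 to 4 for iWAT minus liver. Within a tissue such fits have 1 residual degree of freedom, and the lone library is assumed to vary like the pair. Over all settings, the genes of the whole table that passed ranged from 0 to 1292 in brown fat, 0 to 1121 in eWAT, 0 to 4103 in iWAT and 0 to 454 in liver, and for tissue differences from 80 to 714 for brown fat minus eWAT, 0 to 2424 for brown fat minus iWAT, 0 to 3059 for eWAT minus iWAT, 157 to 711 for eWAT minus liver and 0 to 3046 for iWAT minus liver. The cause of these moves was not tested.

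Signs turned with quantile normalization for Ghr in eWAT (0.11), Ghr in liver (0.039) and Igfbp4 in iWAT (0.11), and with median centring for Igfals in liver (−0.0054). With 1 library left out, signs turned in brown fat for Igf1 (−0.26 to 0.077), Igfals (−3.8e-05 to 0.026), Igfbp4 (−0.21 to 0.27) and Socs2 (−0.11 to 0.28). They turned in eWAT for Ghr (−0.14 to 0.022), Igfbp3 (−0.10 to 0.17) and Igfbp4 (−0.025 to 0.076), and in iWAT for Igf1 (−0.44 to 0.18), Igfbp3 (−0.51 to 0.37) and Igfbp4 (−0.22 to 0.10). In liver they turned for Ghr (−0.12 to 0.062), Igfals (−0.067 to 0.074), Igfbp1 (−0.80 to 0.11), Igfbp2 (−0.22 to 0.10) and Socs2 (−0.36 to 0.92). No setting turned the sign of Igfals in white fat or of Igfbp5 in any tissue.

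The labels do not say whether samples with the same replicate number are paired. Their deviations had correlations of −0.256 in brown fat, 0.224 in eWAT and 0.108 in iWAT, which cannot settle it. With the replicate block the count of members that passed stayed at 0, 1 and 0, and Bcl6 passed in eWAT (adjusted p = 0.0303). The share of all genes that passed in eWAT went from 2.34% to 4.37%, and it stayed at 0% in brown fat and iWAT. No block was fitted in liver, where the title numbers of the groups do not match. The column names number its sunitinib libraries 1 and 2 instead. Read depth is unknown, so what it limits cannot be stated.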
